A study of Mus musculus with 25 samples.

Results

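Neurotrophins and the ligands of the glial cell line-derived neurotrophic factor (GDNF) family are secreted proteins that keep neurons alive and shape their growth, and their receptors are also made by some endocrine cells. The measurements below concern 8 mouse genes of these systems in a pair of pancreatic islet tumour lines: the receptor genes Ngfr, Ntrk2, Ntrk3, Ret, Gfra1, Gfra2 and Gfra3, and the neurotrophin gene Bdnf. They were taken as the rows of the RNA-seq tables that carry these symbols, 8 of 24439 genes, and as the ATAC-seq peaks whose nearest annotated gene is one of them, 78 of 65053 consensus peaks. The genes were selected on differences between the lines that had already been seen in these data, so their values in that comparison are given as a description with no test.

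The lines were alpha TC1 clone 6 (αTC1), a glucagon-producing line, and Beta-TC-6 (βTC6), an insulin-producing line, both grown from islet tumours of mice that carried an SV40 T antigen transgene. Each line is 1 culture-adapted tumour line and αTC1 is a single clone, and the lines were grown in different media, so line, clone and medium cannot be told apart. RNA-seq was done on 3 replicates of each line and ATAC-seq, which counts reads at DNA that a transposase can reach, on 5 replicates of each line and on 9 mixtures of the lines in steps of 10% of cells. RNA-seq libraries held 21795367 to 25876765 expected counts, and ATAC-seq libraries held 4397851 to 10374903 reads in consensus peaks. Nothing in the sources ties the replicates to separate cultures, so p-values measure the spread between these samples, which may be technical.

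The hormone genes matched the labels. Glucagon (Gcg) lay at 12113 to 14406 FPKM in αTC1 and at 172 to 267 FPKM in βTC6, and insulin (Ins1) was listed at 0 FPKM in αTC1 and at 1599 to 2389 FPKM in βTC6. Of the 7 alpha-cell marker rows, Ttr did not separate the lines, at 657 to 929 FPKM in αTC1 and 544 to 1580 FPKM in βTC6. FPKM counts fragments per length of transcript and per depth of library, so it allows levels of different genes to be compared. Of the marker genes of cells that carry these receptors in tissue, Sox10 (Schwann and neural crest cells) and Hand2 (sympathetic neurons) were listed at 0 FPKM in all 6 libraries. The summed level of 6 Schwann and neural crest markers was 9.47 to 10.8 FPKM in αTC1 and 1.84 to 3.66 FPKM in βTC6, and that of 9 neuronal markers, most of it Snap25, Th, Tubb3 and Elavl3, was 182 to 196 FPKM in αTC1 and 256 to 280.0 FPKM in βTC6. These 9 did not move together. From αTC1 to βTC6, Th went from 12.2 to 25.9 FPKM up to 92.3 to 107 FPKM, and Tubb3 from 23.1 to 29.2 up to 55.1 to 60.6. Elavl3 went from 53.0 to 54.4 down to 4.42 to 5.36 FPKM, and Snap25 overlapped. The summed markers of endothelial cells did not exceed 0.31 FPKM in any library, those of immune cells, nearly all Cd68, 2.21 FPKM, and those of fibroblasts or stellate cells 3.59 FPKM. Of the 3 delta-cell markers, the hormone gene Sst was at 207 to 325 FPKM in βTC6 and listed at 0 in αTC1, and Rbp4 was higher in αTC1, so that their sum was 1240 to 1679 FPKM in αTC1 and 423 to 508 FPKM in βTC6. The PP-cell hormone gene Ppy was at 0.09 to 0.10 FPKM in αTC1 and at 50.8, 3.70 and 23.4 FPKM in βTC6 replicates 1 to 3. Summed exocrine markers, mostly Sox9 and Cela1, were 7.71 to 8.15 FPKM in αTC1 and 0.22 to 0.82 FPKM in βTC6.

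The receptors fall into 2 systems. Ntrk2 encodes TrkB, the receptor tyrosine kinase for brain-derived neurotrophic factor (the product of Bdnf), Ntrk3 encodes TrkC, the kinase for neurotrophin-3, and Ngfr encodes p75NTR, a receptor without a kinase that binds all neurotrophins and their uncleaved precursors. Ret encodes the receptor tyrosine kinase of the GDNF family, which signals with a co-receptor anchored to the membrane: GFRα1 (Gfra1) for GDNF, GFRα2 (Gfra2) for neurturin and GFRα3 (Gfra3) for artemin. In the nervous system, cells need both Ret and a co-receptor to answer these ligands through Ret.

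The windows below are the central 200 bases of 6 peaks, read from the plus strand of the mm9 genome. They are shown because they come from the peaks nearest the start sites of 2 receptor genes that differed in RNA (Ret and Ngfr) and, for Bdnf and Ntrk3, a peak that was higher in each line. Capitals mark exact matches, on either strand, of 6 motifs: the cyclic AMP element TGACGTCA, the E-box CACGTG, a second E-box spelled CAGCTG, the homeodomain core TAATTA, the GC box GGGCGG and the TATA box TATAAA.
Ret, start-site peak, chr6:118147012-118147211: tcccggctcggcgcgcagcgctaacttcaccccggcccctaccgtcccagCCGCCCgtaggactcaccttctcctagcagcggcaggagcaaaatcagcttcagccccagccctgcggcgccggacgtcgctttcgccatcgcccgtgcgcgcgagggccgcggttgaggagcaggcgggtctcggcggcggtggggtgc
Ngfr, start-site peak, chr11:95448755-95448954: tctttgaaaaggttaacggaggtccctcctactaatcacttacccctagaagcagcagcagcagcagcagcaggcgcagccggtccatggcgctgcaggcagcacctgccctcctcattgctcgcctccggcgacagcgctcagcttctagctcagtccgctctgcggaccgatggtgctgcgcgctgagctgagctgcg
Bdnf, peak lower in βTC6, chr2:109517915-109518114: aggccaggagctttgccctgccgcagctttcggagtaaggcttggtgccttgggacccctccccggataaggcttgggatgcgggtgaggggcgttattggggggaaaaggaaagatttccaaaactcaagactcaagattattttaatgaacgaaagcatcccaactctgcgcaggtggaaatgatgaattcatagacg
Bdnf, peak higher in βTC6, chr2:109576536-109576735: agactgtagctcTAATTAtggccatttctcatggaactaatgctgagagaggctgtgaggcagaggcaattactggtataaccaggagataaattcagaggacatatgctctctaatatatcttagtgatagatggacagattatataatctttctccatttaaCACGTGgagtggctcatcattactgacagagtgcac
Ntrk3, peak lower in βTC6, chr7:85749152-85749351: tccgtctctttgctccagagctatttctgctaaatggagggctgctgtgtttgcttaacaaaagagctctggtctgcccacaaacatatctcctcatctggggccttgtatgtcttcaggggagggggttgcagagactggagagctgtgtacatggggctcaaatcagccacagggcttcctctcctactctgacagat
Ntrk3, peak higher in βTC6, chr7:84916693-84916892: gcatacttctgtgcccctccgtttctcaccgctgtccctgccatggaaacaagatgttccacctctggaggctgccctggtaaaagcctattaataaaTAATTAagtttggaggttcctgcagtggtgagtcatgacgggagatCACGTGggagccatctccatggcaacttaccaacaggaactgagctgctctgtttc
The 2 windows higher in βTC6, which were picked after their values and matches had been seen, each hold a TAATTA, the core that many homeodomain factors bind, and a CACGTG, the palindromic E-box. Over all 200-base windows, TAATTA is in 6.93% of 65053 peaks and CACGTG in 3.72%. Among the 78 peaks of these genes, 11 hold TAATTA, 6 CACGTG, 11 CAGCTG (17.2% of all peaks), 9 GGGCGG (15.5%), 2 TATAAA (9.92%) and 0 TGACGTCA (0.761%). Of the 11 windows with TAATTA, 7 belong to Ntrk3, and 3 belong to peaks called higher in βTC6 as defined further on. In RefSeq promoters (GRCm38.p6), 10 of which belong to Bdnf, Ngfr, Ntrk2 or Gfra1, GGGCGG was found in 4 and CAGCTG in 3, beside 35.7% and 16.3% of 32851 promoters. A match of letters is a description of the window, not a binding site.

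**Figure D1:**
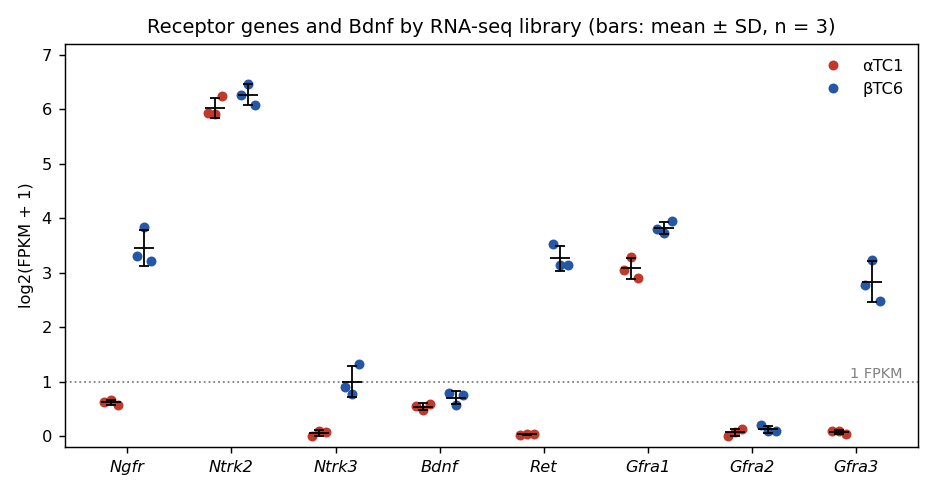
RNA-seq levels of the 8 genes, as log2(FPKM + 1) on the vertical axis, in the 3 libraries of each line (points), with the mean and SD of the log values (bars). Ngfr, Ret and Gfra3 lie above 1 FPKM (dotted line) in every βTC6 library and below it in αTC1, Ntrk2 and Gfra1 lie above it in both lines, and the points of Ntrk2, Bdnf and Gfra2 overlap between the lines.

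Ret and its co-receptor gene Gfra3 were transcribed in βTC6 and nearly silent in αTC1, Ngfr was transcribed in βTC6 and low in αTC1, and Ntrk2 was the most abundant of the 8 transcripts in both. Ret was at 0.01, 0.02 and 0.03 FPKM in αTC1 replicates 1 to 3 and at 10.5, 7.77 and 7.79 FPKM in βTC6 replicates 1 to 3. In bulk libraries fewer expressing cells and less RNA per cell cannot be told apart. These αTC1 levels rest on 1, 3 and 3 counts, against 1273, 997 and 919 in βTC6. Over the summed counts and library totals, the ratio of βTC6 to αTC1 was 425, with an exact 95% interval of 206 to 1059 that covers counting error only.

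Gfra3 was likewise present in βTC6 and near 0 in αTC1. It was at 0.07, 0.06 and 0.02 FPKM in the αTC1 libraries, from 3, 3 and 1 counts, and at 5.85, 8.38 and 4.60 FPKM in the βTC6 libraries, from 300, 433 and 225 counts. Its ratio was 128 (exact 95% interval 61.8 to 319). The other co-receptor genes differed from it: Gfra1 was present in both lines, at 7.29, 8.78 and 6.51 FPKM in αTC1 and 12.9, 12.2 and 14.4 FPKM in βTC6. The 2 groups of Gfra1 values did not overlap, and its log2 fold change of βTC6 over αTC1 was 0.93 (SE 0.11). Part of the Gfra1 gene overlaps Gm16277 on the opposite strand, and RSEM was run with its default parameters, which do not use strand, so reads of these genes cannot be told apart there. Gfra2 was near the limit of the data in every library, at 0, 0.05 and 0.09 FPKM in αTC1 and 0.15, 0.06 and 0.07 FPKM in βTC6, with 0 to 10 counts per library and overlapping groups.

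Among the neurotrophin receptors, Ngfr was at 0.55, 0.58 and 0.48 FPKM in αTC1 and at 8.90, 13.3 and 8.34 FPKM in βTC6, a log2 fold change of 4.30 (SE 0.23). Ntrk2 was at 60.4, 59.1 and 74.7 FPKM in αTC1 and at 76.1, 86.9 and 66.4 FPKM in βTC6. These groups overlapped, and the log2 fold change was 0.15 (SE 0.13). Ntrk3 was low in both lines and lower in αTC1, at 0, 0.07 and 0.05 FPKM (0, 3 and 1 counts) against 0.86, 0.71 and 1.49 FPKM in βTC6 (65, 44 and 95 counts), a ratio of 47.6 (exact 95% interval 18.3 to 176). Bdnf, the gene for the TrkB ligand, was at 0.46, 0.39 and 0.51 FPKM in αTC1 and 0.74, 0.48 and 0.69 FPKM in βTC6. The Bdnf groups overlapped (log2 fold change 0.42, SE 0.27, from 40 to 76 counts per library).

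Within βTC6 the order of mean FPKM was Ntrk2, Gfra1, Ngfr, Ret, Gfra3, Ntrk3, Bdnf and Gfra2. The ranges over libraries of Gfra1 overlapped with those of Ngfr, Ngfr with Ret, Ret with Gfra3, and Ntrk3 with Bdnf. Within each βTC6 library, however, Ntrk3 lay above Bdnf. Differences between these neighbours were not tested. Within αTC1 the order began with Ntrk2 and Gfra1, which stood apart from each other and from the rest, followed by Ngfr and Bdnf with overlapping values and by Gfra3, Gfra2, Ntrk3 and Ret, whose libraries all lay at or below 0.09 FPKM.

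For the edgeR test a gene had to reach 1 FPKM in every replicate of αTC1 or of βTC6, and a call needed a false discovery rate below 5% together with a log2 fold change beyond 2 in size. Of the 8 genes 5 passed this filter, Ngfr, Ret and Gfra3 through βTC6 alone, and 3 lay below it (Ntrk3, Bdnf and Gfra2), so their values come from a fit with no filter. The calls were 3 higher in βTC6 and 0 lower, where 10.2% and 4.08% of all 12195 genes tested were called, and nothing is read from these counts since the genes were chosen on this contrast. On the fold criterion, Ngfr was the nearest inside and Gfra1 the nearest outside. By Euclidean distance in log2(FPKM + 1) over the 6 libraries, the genes most like Ret were Gc, Arhgef16 and Rtn4rl1 (distances 0.26, 0.26 and 0.30), and those most like Gfra3 were Scnn1b, Ugt1a9 and Bik (0.15, 0.17 and 0.24). Those most like Ngfr were Fam167a, 2510049J12Rik and Lrrn1 (0.45, 0.47 and 0.58), those most like Ntrk2 were Vps28, Pdia4 and Ilk (0.30, 0.30 and 0.32), and those most like Gfra1 were Rps6kb1, Rab31 and Pcsk7 (0.26, 0.27 and 0.27).

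The ligand genes given here were low in both lines. The neurotrophin genes Ntf3 and Ntf5 did not exceed 0.03 and 0.14 FPKM in any library. Gdnf did not exceed 0.01 FPKM, and Artn, the gene of the GFRα3 ligand artemin, lay between 0.02 and 0.24 FPKM. Nrtn, the gene of the GFRα2 ligand neurturin, was at 0.74 ± 0.40 FPKM in αTC1 and 1.71 ± 0.54 FPKM in βTC6 (SD, n = 3), with a log2 fold change of 1.24 (SE 0.40). Pspn, for the ligand persephin, lay between 0.46 and 1.21 FPKM. Gdf15, a ligand of the Ret co-receptor encoded by Gfral, ranged in βTC6 from 0.54 FPKM in replicate 2 to 4.30 FPKM in replicate 1 and did not pass the filter, and Gfral itself was listed at 0 in all libraries. The other co-receptor gene, Gfra4, was listed at 0 in αTC1 and at 0.15 to 0.22 FPKM in βTC6.

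The lists of other pathway genes were chosen with earlier results of these data known, and several genes were named for the size of their change. The filter also favours a difference in genes that pass through 1 line alone. The other receptor genes are therefore described with no p. Lingo1 and Rtn4r, whose products form a complex with p75NTR, were both higher in βTC6, Lingo1 at 1.29 ± 0.46 and 25.9 ± 1.94 FPKM (SD, n = 3, log2 fold change 4.33, SE 0.19), and Rtn4r at 0.06 ± 0.03 and 3.14 ± 0.62 FPKM (log2 fold change 5.59, SE 0.34). Sort1 passed the filter in both lines. This gene, for the co-receptor sortilin that binds proneurotrophins with p75NTR, fell from 55.4 ± 1.42 to 23.0 ± 1.31 FPKM (log2 fold change -1.11, SE 0.07) and so did not reach the fold criterion. The sortilin relative Sorcs1 was higher in βTC6, with a log2 fold change of 2.48 (SE 0.28). Among the alternative partners of the GDNF family, Ncam1, which also passed in both lines, was at 24.8 ± 2.08 and 38.7 ± 3.68 FPKM (log2 fold change 0.90, SE 0.08). Sdc3, for the proteoglycan syndecan-3, was at 0.68 ± 0.40 and 8.63 ± 0.81 FPKM (log2 fold change 3.77, SE 0.35).

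**Figure D2:**
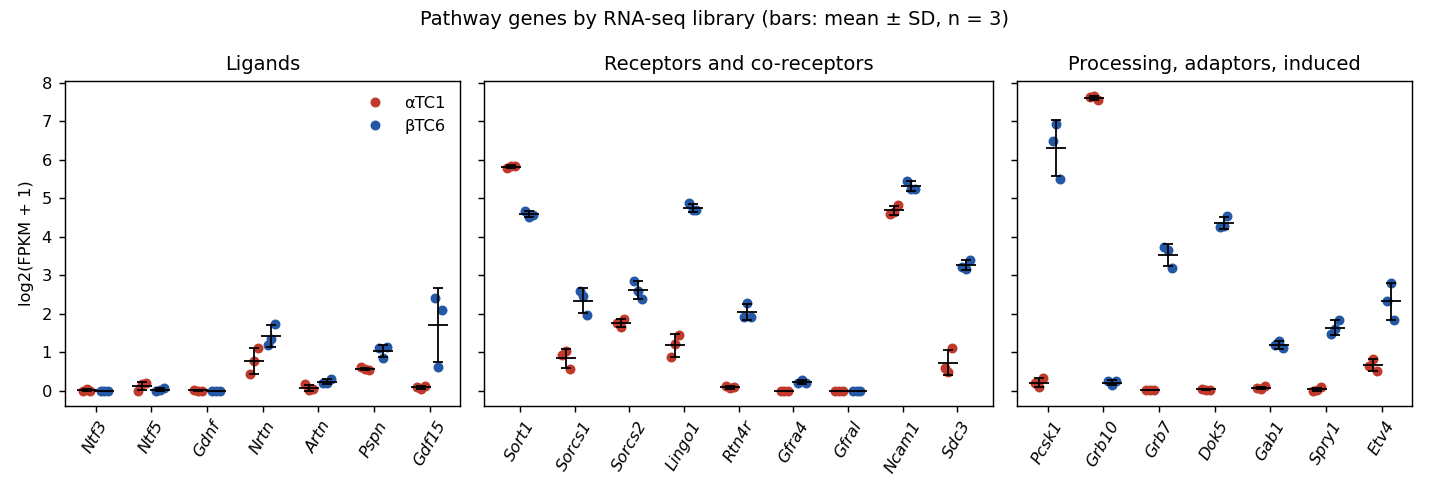
Levels of selected ligand, receptor, processing, adaptor and induced genes of the same pathways, as log2(FPKM + 1), in the 3 RNA-seq libraries of each line (points), with mean and SD of the log values (bars). Sort1 and Grb10 lie higher in αTC1, and Lingo1, Rtn4r, Sdc3, Pcsk1, Grb7, Dok5, Gab1, Spry1 and Etv4 lie higher in βTC6.

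Over the lists of pathway genes that are not among the 8, 78 of 98 genes were tested, and 17 were called higher and 4 lower in βTC6, beside 10.2% and 4.08% of all genes tested. With limma on log2(FPKM + 1) these counts were 8 and 2, beside 5.76% and 2.27%. The median log2 fold change of the 78 was 0.51, against 0.01 over all genes tested. At the false discovery rate alone, 40 were higher and 24 lower, beside 38.7% and 36% of all genes tested. Among the lists reported one by one here, of 7 receptor genes tested 4 were called higher and 0 lower, of 33 adaptor genes 5 and 3, of 15 p75NTR partner genes 0 and 0, of 15 genes that receptor signalling induces 6 and 0, of 4 processing genes 1 and 0, of 2 genes for GDNF family receptors 1 and 0, and of 1 GDNF family ligand 0 and 0. The filter favours a difference in a gene that passes through 1 line alone, so these counts describe the lists and do not set them apart.

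The adaptor genes differed in both directions, and those named for the size of their change are described with no p. Grb10, an imprinted adaptor gene whose product binds several receptor kinases including Ret, was at 195 ± 6.55 FPKM in αTC1 (SD, n = 3) and at 0.18, 0.10 and 0.19 FPKM in βTC6, a ratio of αTC1 to βTC6 of 1359 (exact 95% interval 1039 to 1814). Grb7, a relative that also binds Ret, ran the other way, from 0.02 FPKM in each αTC1 library to 12.2, 11.5 and 8.10 FPKM (ratio 584, interval 199 to 2834). Dok5, an adaptor of Ret and the Trk receptors, was at 0.02 to 0.03 FPKM in αTC1 and 18.2, 18.4 and 22.1 FPKM in βTC6 (ratio 816, interval 279 to 3959.5). Gab1, a docking protein gene, went from 0.05 ± 0.03 to 1.29 ± 0.16 FPKM (SD, n = 3, log2 fold change 4.68, SE 0.32). The shared adaptor Grb2 was at 38.4 ± 2.96 and 39.3 ± 4.29 FPKM (log2 fold change 0.05, SE 0.07).

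Pcsk1, for a prohormone convertase that is best known for cleaving proinsulin, was the 1 called among the 4 processing genes tested and went from 0.15 ± 0.10 to 84.8 ± 38.3 FPKM (log2 fold change 9.13, SE 0.53). Of the genes induced downstream of receptor kinases, Spry1 went from 0.03 ± 0.03 to 2.13 ± 0.41 FPKM (ratio 75.4, exact 95% interval 32.1 to 234) and Etv4 from 0.59 ± 0.18 to 4.17 ± 1.68 FPKM (log2 fold change 3.14, SE 0.30). Fos and Fosb, immediate-early genes that also answer handling and serum, were called higher in βTC6, but their βTC6 values ranged from 18.3 FPKM in replicate 2 to 236 FPKM in replicate 3 for Fos and from 1.52 to 49.3 FPKM for Fosb, and both overlapped with αTC1. Without βTC6 replicate 2, 21 pathway genes were called higher and 5 lower, and with no share over all genes beside them nothing is read from these counts.

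In chromatin, the called peaks belonged to Bdnf, Ntrk3 and Gfra1 with the pseudocount of 1 used here, and an Ngfr peak and a pair of Ntrk2 peaks were added with a smaller one. Of the 78 peaks 31 were nearest to Ntrk3, 14 to Ntrk2, 13 to Bdnf, 9 to Gfra1, 4 to Ret, 4 to Ngfr, 3 to Gfra3 and 0 to Gfra2, whose start site lay 37251 bp from the nearest peak. Peaks were compared with limma on log2(normalized reads + 1) and called at the thresholds used for RNA. The calls were 11 higher in βTC6 (7 of Bdnf, 3 of Ntrk3 and 1 of Gfra1) and 3 lower (2 of Ntrk3 and 1 of Bdnf), where 12.9% and 5.38% of all peaks were called. With a pseudocount of 0.1, and likewise with edgeR on the recovered reads, the calls were 21 higher and 5 lower, where 21.1% and 9.08% of all peaks were called with that pseudocount and 21.2% and 8.82% with edgeR. They then included 1 Ngfr peak higher (chr11:95446575-95447087, log2 fold change 2.43 and 2.18 in these fits) and 1 Ntrk2 peak in each direction (chr13:59112686-59113213, 2.26 and 2.21, and chr13:59097949-59098287, -2.49 and -2.47). With a pseudocount of 5 the calls were 5 higher, of Bdnf and Ntrk3, and 0 lower, beside 2.56% and 1.26% of all peaks. No peak of Ret or Gfra3 was called in these 4 fits. The median log2 fold change of the 78 was 0.62, against 0.00 over all peaks. Just inside the fold criterion was a Bdnf peak at -2.04, and just outside was an Ntrk3 peak at 1.96. By position, 39 peaks lay in introns, 11 over exons and 28 between genes, and 50 lay within the gene they were assigned to.

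**Figure D3:**
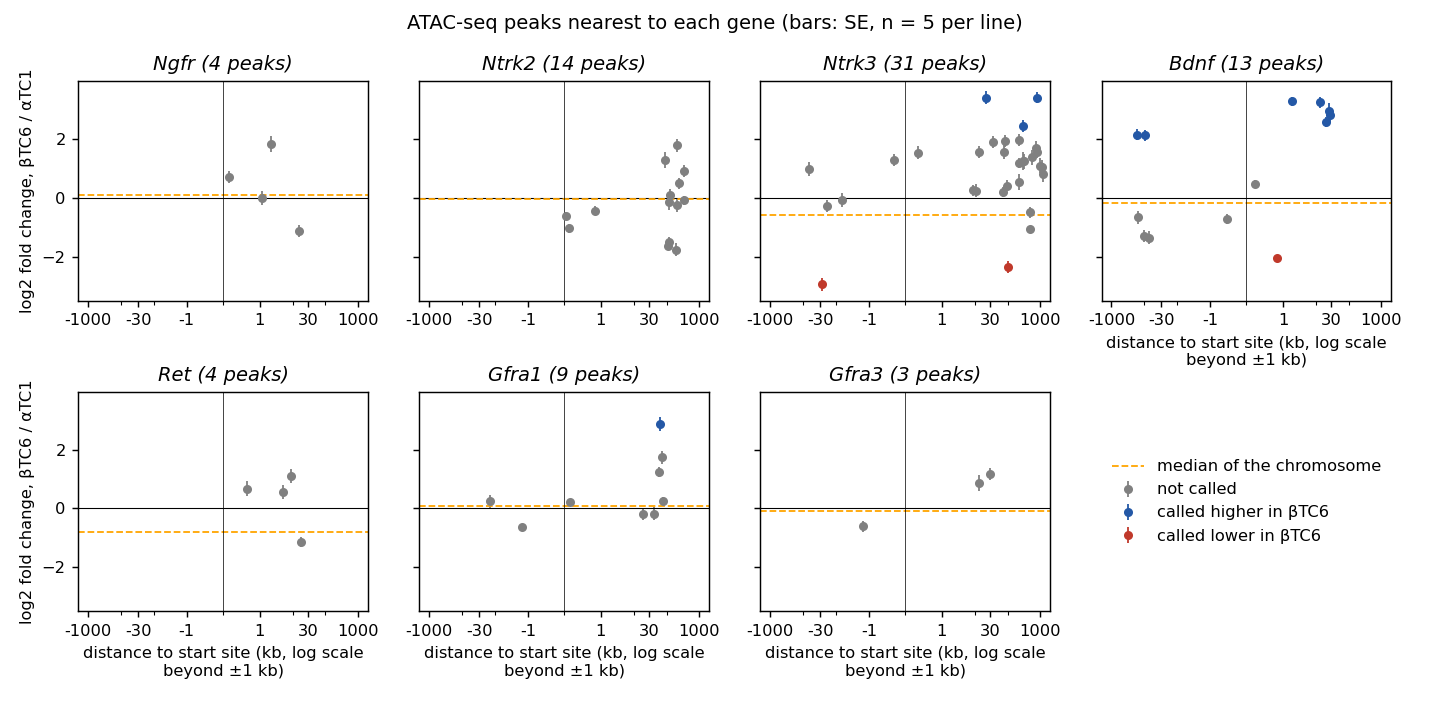
The 78 ATAC-seq peaks by distance to the start site of their nearest gene (horizontal, kb, log scale beyond 1 kb on either side, negative upstream) and log2 fold change of βTC6 over αTC1 (vertical, bars are SE, n = 5 per line). The peaks called with a pseudocount of 1 belong to Bdnf, Ntrk3 and Gfra1, and the dashed line is the median of all peaks on the chromosome, which is -0.57 for Ntrk3 and -0.79 for Ret.

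At Ret and Ngfr, the start-site peaks had few reads in both lines, and their log2 fold changes fell short of the fold criterion. The Ret start-site peak (chr6:118146839-118147384, over an exon, shown above) had 5.04, 3.37, 3.76, 4.78 and 2.46 normalized reads in αTC1 replicates 1 to 5 and 5.82, 8.41, 9.73, 6.99 and 3.76 in βTC6 replicates 1 to 5. The groups overlapped, and the log2 fold change was 0.68 (SE 0.24). The median log2 fold change of all peaks on chromosome 6 was -0.79, so relative to its chromosome this peak stood 1.47 higher. The other Ret peaks were all in introns, and the strongest of them in αTC1, chr6:118129576-118130133, was lower in βTC6, at 13.9 ± 1.89 against 5.82 ± 1.20 normalized reads (SD, n = 5, log2 fold change -1.14, SE 0.17, or -0.35 relative to the chromosome median). The Ngfr start-site peak (chr11:95448601-95449108, shown above) was at 4.22 ± 0.856 and 7.50 ± 1.16 normalized reads (log2 fold change 0.71, SE 0.20). The other peak near the Ngfr start site, chr11:95447682-95447958 in an intron, was at 3.44 and 3.42 (log2 fold change 0.0092, SE 0.23). An intron peak 2181 bp into Ngfr, chr11:95446575-95447087, went from 1.87 ± 1.11 to 8.46 ± 0.586 (log2 fold change 1.83, SE 0.27), the largest of the gene, and the last Ngfr peak, chr11:95433032-95433384 over an exon, went down from 12.8 ± 1.74 to 5.58 ± 2.06.

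The start-site peaks of Gfra3 and Ntrk2 had negative log2 fold changes, as did the median of all peaks within 2000 bp of a start site, at -0.31. The Gfra3 peak upstream of its start site, chr18:34881153-34881865, was at 14.3 ± 3.27 normalized reads in αTC1 and 9.20 ± 2.84 in βTC6 (SD, n = 5, log2 fold change -0.61, SE 0.19), and the groups overlapped. A Gfra3 intron peak, chr18:34851373-34852063, was higher in βTC6, at 3.28 ± 0.511 against 8.69 ± 1.76. At Ntrk2, which has 3 start-site peaks, the log2 fold changes were -0.62, -1.03 and -0.43, and the strongest peak of the gene, chr13:59023041-59024193 in an intron, was at 36.6 ± 2.88 in αTC1 and 11.3 ± 1.25 in βTC6 (a log2 fold change of -1.62, SE 0.11). An Ntrk2 intron peak further downstream, chr13:59112686-59113213, was higher in βTC6 instead, at 1.79 ± 0.695 against 8.40 ± 0.965.

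Bdnf, whose transcripts start at several alternative promoters, had called peaks in both directions. Its strongest peak, chr2:109517215-109518814, covers an exon and 1 GENCODE start site and was more open in αTC1. It had 142, 133, 144, 153 and 143 normalized reads in the αTC1 libraries and 30.1, 33.2, 34.7, 33.1 and 39.6 in the βTC6 libraries, with no overlap (log2 fold change -2.04, SE 0.09). The next start-site peak downstream, chr2:109533330-109534599, was at 20.5 ± 3.24 and 29.0 ± 3.16, with no overlap (log2 fold change 0.49, SE 0.12). The intron peak after it, chr2:109551150-109551809, lies 1940 bp from a start site in the deposited annotation, although the nearest GENCODE start is 16851 bp away. It had 3.36, 2.25, 4.51, 3.0 and 4.04 normalized reads in αTC1 and 47.7, 39.8, 37.6, 41.1 and 42.1 in βTC6 (a log2 fold change of 3.29, SE 0.15). The peak downstream of the gene that is shown above with TAATTA and CACGTG, chr2:109576223-109577048, went from 1.87 ± 0.658 to 25.6 ± 2.29 (log2 fold change 3.24, SE 0.19), and 3 more peaks up to 27820 bp from the deposited start site had log2 fold changes of 2.59, 2.95 and 2.81. The last 2 of these held 1 read in some αTC1 library, which is the lowest value in the table, so 1 read there cannot be told from none. The other 2 called peaks lay upstream, at -164051 and -95749 bp. For the 3 peaks up to 27820 bp away, the nearest GENCODE start site was that of Gm13932, at 48742, 43581 and 41793 bp. For the peak at -164051 bp it was that of Gm13925, at 33646 bp. All of these are Bdnf peaks only by the deposited assignment. Bdnf RNA itself was below 1 FPKM in every library.

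The Ntrk3 locus on chromosome 7 held the most peaks, spread from -67913 to 1164022 bp around its start site. Of its 31 peaks 25 had a positive log2 fold change, with a median of 1.18, on a chromosome whose median was -0.57. Both of its start-site peaks were low and higher in βTC6: chr7:85722161-85722592 was at 2.14 ± 0.762 and 8.02 ± 1.59 normalized reads (SD, n = 5, log2 fold change 1.54, SE 0.23), and chr7:85722881-85723174 at 1.33 ± 0.636 and 4.51 ± 0.453 (log2 fold change 1.28, SE 0.21). The intron peak chr7:85700248-85701125, 22037 bp into the gene, had 0.840, 1.40, 0.601, 0.819 and 2.17 normalized reads in αTC1 and 19.9, 28.9, 18.1, 18.0 and 23.5 in βTC6 (a log2 fold change of 3.41, SE 0.22). The distal peak shown above, chr7:84916484-84917100, went from 1.82 ± 0.605 to 28.8 ± 6.28, but it lies 805932 bp from the Ntrk3 start site, and the nearest GENCODE start site is that of a U1 gene, 138414 bp away, so it is an Ntrk3 peak only by the deposited assignment. Against these, the peak chr7:85748825-85749678, upstream of the gene, had 21.1, 18.3, 19.1, 21.8 and 19.8 normalized reads in αTC1 and 2.70, 0.615, 3.11, 1.43 and 1.69 in βTC6 (a log2 fold change of -2.93, SE 0.23), and the intron peak chr7:85621740-85622534 went from 14.3 ± 1.42 to 2.03 ± 0.519. The strongest peak assigned to Ntrk3, chr7:85230586-85231779, was at 65.5 ± 6.33 and 31.0 ± 4.30, but it lies between genes, 491541 bp from the Ntrk3 start site. Relative to the chromosome median, 19 of the 78 peaks would be called higher and 1 lower, beside 12.5% and 4.6% of all peaks.

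At Gfra1 both start-site peaks were open in each line, at 33.9 ± 4.29 and 39.4 ± 3.76 normalized reads for chr19:58528910-58530581 and 24.6 ± 1.77 and 15.6 ± 1.97 for chr19:58531122-58531649 (SD, n = 5). The called peak, chr19:58463333-58463915, lies in an intron 65460 bp downstream. It was at 0.726 ± 0.537 normalized reads in αTC1, with 1 read in at least 1 library, and at 11.1 ± 0.970 in βTC6 (log2 fold change 2.87, SE 0.23). Replicates 1 to 3, the numbers that also have RNA-seq, and replicates 4 and 5 were compared apart, and the called peaks named above had the same sign in both sets. Both sets are parts of the libraries that gave the calls, so an equal sign was largely fixed beforehand and is a description only. For this Gfra1 peak the log2 fold changes were 2.75 and 3.05, for the Bdnf intron peak 3.31 and 3.24, and for the Ntrk3 intron peak 3.57 and 3.17.

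**Figure D4:**
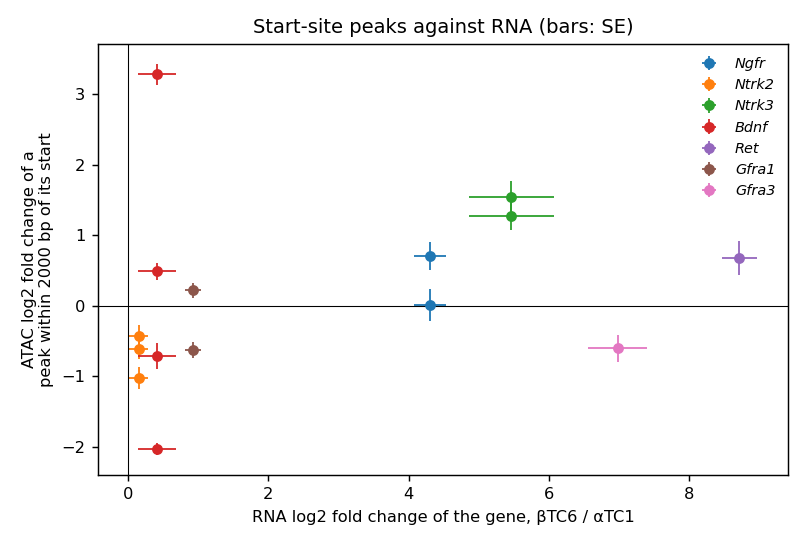
For each of the 15 peaks within 2000 bp of a start site, the ATAC-seq log2 fold change of the peak (vertical) against the RNA-seq log2 fold change of its gene (horizontal), both βTC6 over αTC1, with SE bars. Ret and Gfra3, with the largest RNA values, have start-site peaks at 0.68 and -0.61, while the 4 Bdnf peaks run from -2.04 to 3.29 at 1 RNA value.

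The 9 mixtures of the lines gave ATAC-seq values from libraries that had not chosen these genes. For each peak, the slope of log2(normalized reads + 1) on the share of βTC6 cells was tested with limma, two-sided, with adjustment over all 65053 peaks. Slopes are given per step from 0% to 100% βTC6. Of the 78 peaks 39 rose and 15 fell with the βTC6 share at a false discovery rate under 5%, beside 33.5% and 24.8% of all peaks, and 24 did not pass. All 11 peaks called higher in βTC6 rose and all 3 called lower fell. Over all called peaks these shares were 98.6% and 98.6%, so this is the usual behaviour of a called peak.

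The Bdnf start-site peak fell along the mixtures from 10% to 90% βTC6 cells, with 119, 112, 108, 109, 75.4, 81.2, 71.4, 58.8 and 50.0 normalized reads, a slope of -1.55 (SE 0.16, limma adjusted p = 6.69e-07, n = 9 mixtures). The Bdnf intron peak at chr2:109551150-109551809 rose through 4.67, 7.81, 10.3, 17.8, 18.6, 18.6, 28.2, 31.9 and 34.8, a slope of 3.19 (SE 0.29, limma adjusted p = 1.48e-07). For Ntrk3, the intron peak at chr7:85700248-85701125 had 3.45, 4.34, 4.93, 7.14, 16.1, 12.8, 13.6, 16.4 and 21.7 (slope 2.98, SE 0.37, limma adjusted p = 4.06e-06), and the upstream peak at chr7:85748825-85749678 had 19.7, 15.6, 14.1, 12.1, 12.1, 7.15, 10.6, 3.97 and 2.69 (slope -2.77, SE 0.40, limma adjusted p = 1.91e-05). The values thus moved by steps between the pure lines, with single exceptions to the order such as the 50% mixture in the first of these Ntrk3 peaks.

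Some peaks that had missed the fold criterion also passed the mixture test. Both Ntrk3 start-site peaks rose (slopes 1.84 and 2.13, SE 0.58 and 0.41, limma adjusted p = 0.0115 and 0.000284), the first not passing without the mixture of 10% or 90% αTC1 cells (slopes 1.49 and 1.24). The Bdnf start-site peak chr2:109533330-109534599 rose (slope 0.84, SE 0.25, limma adjusted p = 0.00802). At Gfra1, the start-site peak chr19:58528910-58530581 rose (slope 0.54, SE 0.16, limma adjusted p = 0.00781, not passing without the mixture of 90% αTC1 cells, slope 0.43), the peak upstream of it fell (slope -0.81, SE 0.23, limma adjusted p = 0.00615), and the called intron peak rose with a slope of 2.52 (SE 0.39, limma adjusted p = 3.61e-05). The Ngfr intron peak at chr11:95446575-95447087 rose with a slope of 2.57 (SE 0.45, limma adjusted p = 0.000137) and the Ngfr start-site peak with 1.53 (SE 0.50, limma adjusted p = 0.0141), which did not pass without the mixture of 80% or that of 90% αTC1 cells (slopes 1.22 and 1.36). The other Ngfr start-site peak did not pass (slope -0.11, SE 0.46, limma adjusted p = 0.851), and the Ngfr exon peak chr11:95433032-95433384 fell (slope -0.96, SE 0.35, limma adjusted p = 0.0248), not passing without the mixture of 20%, 80% or 90% αTC1 cells (slopes -0.70, -0.83 and -0.91). At Gfra3 the intron peak rose (slope 2.02, SE 0.44, limma adjusted p = 0.000904) and the upstream peak fell (slope -0.81, SE 0.32, limma adjusted p = 0.0354), the latter not passing without the mixture of 10%, 20% or 70% αTC1 cells (slopes -0.72, -0.57 and -0.77), nor with reads that were not log-transformed (slope -6.10 normalized reads). The Ret start-site peak, at 3.05, 2.78, 2.54, 3.35, 4.38, 2.82, 3.19, 4.66 and 5.11 normalized reads, had a slope of 0.74 (SE 0.42, limma adjusted p = 0.139) and did not pass, whereas the Ret intron peak at chr6:118129576-118130133 fell (slope -1.39, SE 0.40, limma adjusted p = 0.0069), though not without the mixture of 10% αTC1 cells (slope -0.93). None of the 3 Ntrk2 start-site peaks passed, with slopes of 0.11, -0.69 and 0.33 (limma adjusted p = 0.797, 0.0505 and 0.442), although the second did without the mixture of 30%, 40%, 70% or 80% αTC1 cells (slopes -0.72 to -0.80), with a pseudocount of 5 (slope -0.51) and with pure replicates 4 and 5 added (slope -0.98). The Ntrk2 intron peaks at chr13:59023041-59024193 and chr13:59112686-59113213 fell and rose, with slopes of -0.92 and 1.30 (limma adjusted p = 0.00616 and 0.0257), the first not passing without the mixture of 10% αTC1 cells (slope -0.76) and the second without that of 20%, 80% or 90% (slopes 1.14 to 1.26).

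**Figure D5:**
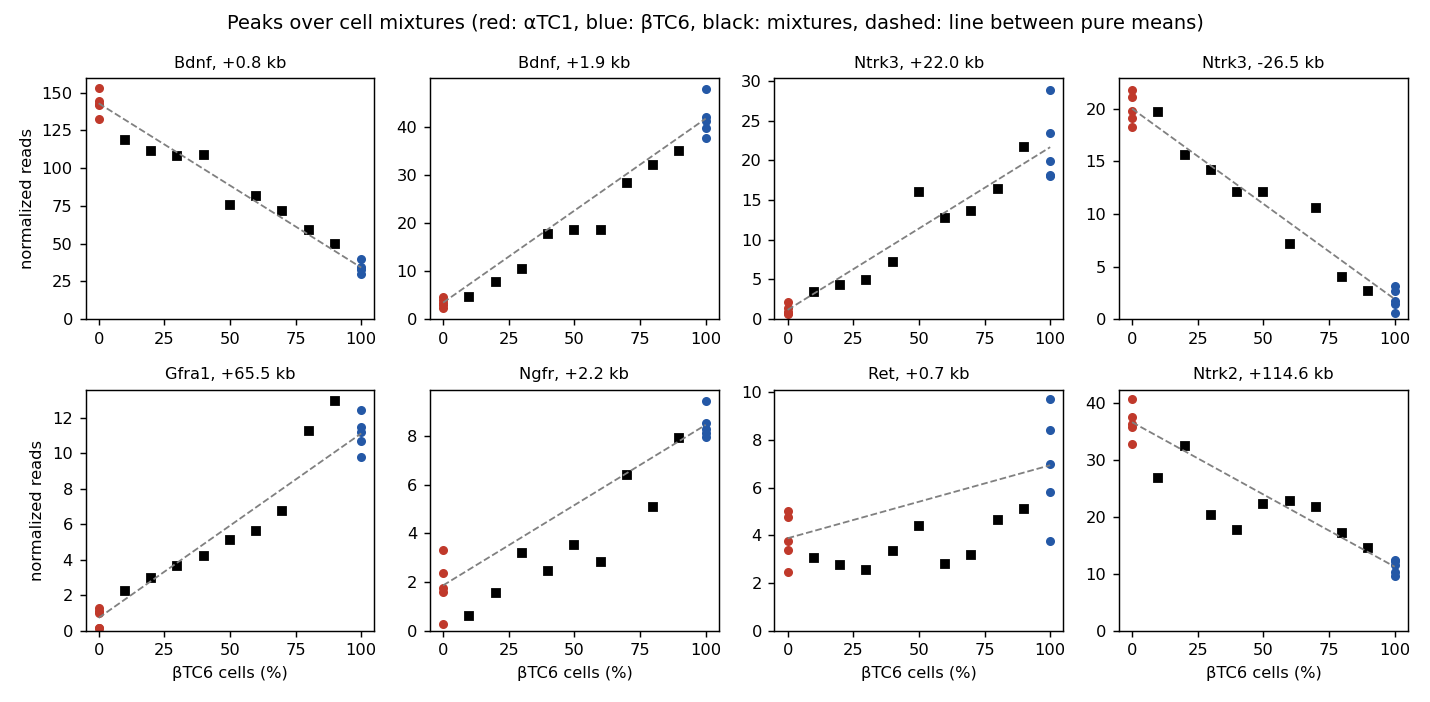
Normalized ATAC-seq reads (vertical) in 8 peaks over the share of βTC6 cells (horizontal, %), with the 5 pure libraries of each line at 0% and 100% (coloured points), the 9 mixtures (black squares) and the straight line between the pure means (dashed). Titles give the distance to the start site. The Ret start-site mixtures, at 2.54 to 5.11, lie below the dashed line, as do all mixtures of the Bdnf intron peak and most of those of the Ngfr peak.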

How the data were processed

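ATAC-seq and RNA-seq were done on the αTC1 and βTC6 lines and ATAC-seq on their mixtures. The deposited ATAC-seq signal values are read counts per consensus peak that the authors normalized by TMM to effective library size. Reads were trimmed with Trimmomatic 0.32, aligned to mm9 with BWA 0.7.9a and deduplicated with Picard 1.95, peaks were called with MACS2 2.1.0, and DiffBind 2.2.5 formed the consensus, per the submitters' processing notes and the study's methods. In every library 100% of the values were whole multiples of the lowest one (within 0.01 of a whole number), so reads were recovered by division. For RNA-seq, the authors trimmed reads with Trim Galore, ran RSEM 1.2.12 over Bowtie 2 alignments and deposited its expected counts and its FPKM values. Each sample column was matched to a library, with 0 left over. Columns that hold the authors' own calls were not used.

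Genes were tested with edgeR 4.0.16 (quasi-likelihood test, TMM) on expected counts rounded to whole numbers. A gene entered if every replicate of αTC1, or every replicate of βTC6, reached 1 FPKM, and spike-in rows were left out. Genes below this filter are described from a fit with no filter. Peaks were tested with limma 3.58.1 (lmFit and eBayes with a trend, R 4.3.3), taking log2 after adding 1 to the normalized reads, and mixtures with the βTC6 share as a numeric term. Fold changes are βTC6 over αTC1, adjusted p-values are Benjamini-Hochberg over all features, and calls need a false discovery rate under 5% and, between lines, an absolute log2 fold change over 2. For a gene, SE was computed as the fold change on the log2 scale over the root of edgeR's F statistic. Ratios of summed counts have exact binomial intervals for counting error only. All 3 tests were tested on simulated data. DESeq2 1.42.0, other pseudocounts, filters and scalings, a replicate block and leaving out each library were alternatives.

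The genes and lists were chosen with earlier results of these data known. Named were the 8 genes, the ligands and receptors, the 12 pathway genes called with the largest change, and for each gene the peaks within 2000 bp of a start site, the peak with the largest change and the strongest peak. Called peaks, Sorcs1, Grb2, Fos and Fosb were named after their values were seen, and so were single markers. Positions over exons and introns come from GENCODE vM1 on the NCBI37 (mm9) genome, and distances to start sites from the deposited table. Some genes of the pathway and marker lists enter the counts and sums but are not reported here.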

Additional observations from a re-analysis of the deposited data

Results flagged for a closer look

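In 68 groups of 5 ATAC-seq libraries (the named or called peaks in each line), 1 group held a library far from the other 4, where chance alone gives about 1 in 20 groups. It was the Ngfr intron peak chr11:95447682-95447958, 1192 bp from the start site, which had 5.74 normalized reads in αTC1 replicate 1 and 2.46 to 3.31 in the other αTC1 replicates. The gap was 0.741 of the range of the group. No call rests on this peak, whose log2 fold change was 0.01 (SE 0.23).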

How the results depend on the processing

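The RNA calls of the 8 genes were 3 higher and 0 lower under each alternative except the fits with no FPKM filter and with edgeR's own filter, which added Ntrk3 for 4. On log2(FPKM + 1) with limma, pathway genes called higher and lower numbered 8 and 2 instead of 17 and 4. Leaving out 1 RNA-seq library gave 15 to 21 higher and 4 to 5 lower. Of the 78 peaks, 11 higher and 3 lower became 21 and 5 with a pseudocount of 0.1, 5 and 0 with a pseudocount of 5, 21 and 5 with edgeR on the recovered reads, and 19 and 1 when centred on the chromosome median, with the false discovery rates of the uncentred fit. A larger pseudocount shrinks the fold changes of low peaks by construction. Leaving out 1 ATAC-seq library gave 11 to 13 higher and 2 to 3 lower, and no called peak changed sign under an alternative. With peaks of at least 5 normalized reads on average, 22 rose along the mixtures instead of 39, since fewer were tested. Where no share over all genes or peaks is given for an alternative, nothing is read from a shift in these counts. Mixture slopes of 4 peaks that had not passed changed sign. That of the Bdnf peak at -522 bp ran from -0.46 to 0.11 when single mixtures were left out, that of the Ngfr peak at 1192 bp from -0.48 to 0.18, and that of the Ntrk2 peak at 39 bp from -0.053 to 0.45. With pure replicates 4 and 5 added, the slopes were 0.077 for this Ngfr peak, -0.40 for this Ntrk2 peak and -0.19 for the Ntrk2 peak at 836 bp. Spike-in scaling shifted the median of all genes by -0.03 on the log2 scale.

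Samples of the same replicate number did not deviate together (correlations of -0.04 to 0.02 in RNA-seq and 0.00 to 0.07 in ATAC-seq), so no pairing by number was seen. Whether equal numbers were handled together cannot be told from this. With a replicate block the calls were 3 and 0 for the 8 genes, 15 and 4 for the pathway genes, and 11 and 3 for the peaks. Counts of 0 to 4 per library limit the αTC1 levels of Ret, Gfra3, Ntrk3 and Gfra2.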
